A study of Mus musculus with 4 samples.

Results

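Neutrophils that carried transcripts of Cd274, the gene of the immune checkpoint ligand PD-L1, and none of Retnlg were described in mouse 4T1 tumours. They were chosen on their own UMI counts (molecules counted by their unique barcode). A cell of the pooled 10x Genomics matrix was kept with at least 300 genes and at most 15% of its UMIs from mitochondrial genes. It entered a neutrophil gate when S100a8 and S100a9 held at least 1% of its UMIs, Csf3r had at least 1 UMI and Ly6c2 had none. A gated cell was a member when it had no Retnlg UMI and at least 1 Cd274 UMI. In all, 1140 of the 32133 kept cells were members, with 94, 578, 362 and 106 in libraries 1 to 4. The comparison cells were the 2216 gated cells with neither Retnlg nor Cd274, at 97, 868, 628 and 623 a library. A further 2034 gated cells had Retnlg.

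The tumours were grown by implanting 1000000 4T1 cells, a mouse mammary carcinoma line, in the flank of female BALB/c mice aged 6 to 8 weeks. The mice received PBS or TIOs, a T-cell-inspired oncolytic system, by vein on day 7. NIR light (980 nm, 1 W cm-2, 5 min) was given on day 8, day 9 and day 10. Leucocytes were sorted on CD45 from the tumours of day 13. By the labels 2 samples had PBS with NIR and 1 had TIOs with NIR, and the group of 1 sample was unclear. The barcodes carry 4 suffixes, called libraries 1 to 4 here, and none of the labels ties a suffix to a sample. It is therefore unknown which sample or treatment a library holds, or whether it holds 1 sample. PBS and TIOs tumours were not compared. Every comparison was made between cells inside each library. Cells are not replicates, so no p-value was computed. A gene met the rule of size when its level, as UMIs summed over the cells of a side and scaled to a total of 1000000 (CPM), with 10 CPM added to both sides, differed at least 1.5-fold one way in each of the 4 libraries. It was applied to genes with a mean of 50 CPM or more. Intervals are exact 95% intervals that cover counting error only.

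Neutrophils are short-lived leucocytes that are packed with the calcium-binding proteins S100a8 and S100a9 and depend on Csf3r, the receptor of granulocyte colony-stimulating factor. In tumours they can restrain T cells, and PD-L1 is one of the surface ligands that does so, by binding PD-1. Interferons raise Cd274 transcription through Janus kinases, STAT proteins and Irf1, and the same route drives the guanylate-binding proteins (Gbp genes), GTPases that act on microbes inside cells. Elements with the core GAAANNGAA bind interferon regulatory factors and STAT complexes.

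That core was searched on both strands of the RefSeq promoter windows (250 bases before to 50 after the start, GRCm38.p6) of Cd274 and the 8 genes that met the rule as higher in members. The stretches that hold it are shown so that the gene that chose the members, Cd274, can be set beside the genes higher in them. Capitals mark the core, or its reverse complement:
Cd274, chr19:29367352-29367380, plus strand: actgggtggcTTCGGTTTCacagacagcg
Gbp2, chr3:142620595-142620623, plus strand: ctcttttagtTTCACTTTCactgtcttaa
Gbp2b, chr3:142594701-142594729, plus strand: tacttctaatTTCACTTTCttctttatca
Gbp5, chr3:142496760-142496788, plus strand: cttgtgtagtTTCAATTTCagtttagaga
Irgm1, chr11:48871432-48871460, minus strand: cctgtttcaaGAAATAGAAaccgaaactg
The core lay 67, 49, 127, 155 and 21 bases before the start of Cd274, Gbp2, Gbp2b, Gbp5 and Irgm1, and Irgm1 had a second, overlapping copy. It was thus in Cd274 and in 4 of the 8 genes, against 8.56% of all 32851 windows and 11.3% of the 1866 tested genes with a window. A gamma-activated site core, TTCNNNGAA, which can overlap the first, was in the windows of Gbp5 and Ifit2, against 8.30% of all windows and 8.74% of the tested genes. A match of letters is a description and not a binding site.

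The members carried neutrophil transcripts that the gate had not used. Cxcr2, a chemokine receptor of neutrophils, was found in 54.6% of members (51.6 to 57.5%), and Trem1, an activating receptor, in 80.6% (78.2 to 82.9%). Of the T cells of the same matrix (3 or more UMIs of Cd3d, Cd3e and Cd3g), which should lack these genes, 4.54% and 16.4% held a UMI, at a median of 12370 UMIs a cell against 1918 in the members. Ly6g, another neutrophil surface gene, was scarce at 13.6 to 57.4 CPM in the members of the 4 libraries and was found in 4.65% of them. The edges of the gate were as follows. The 31 members just above the S100 limit had 163 CPM of Cxcr2 and the 32 cells just below it 232 CPM. The macrophage markers summed to 5936 CPM in those members, 2752 CPM in the cells below and 1948 CPM in all members. The 484 members with a single Csf3r UMI had 348 CPM of Cxcr2, and 671 cells left out for lack of a Csf3r UMI had 189 CPM. Another 230 cells were left out by 1 Retnlg UMI and 66 by 1 Ly6c2 UMI. Library 1 stood apart, as its members held more macrophage and MHC class II transcripts than those of the other libraries, with values given beside the results below. In the whole matrix 101 barcodes occurred in more than 1 library, and no member shared its barcode with a member of another.

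Cd274 was carried by 49.2% of the Retnlg-negative gate in library 1 (41.9 to 56.5%), 40.0% in library 2 (37.4 to 42.6%), 36.6% in library 3 (33.6 to 39.7%) and 14.5% in library 4 (12.1 to 17.3%). Over all libraries the share was 33.97% (32.4 to 35.6%). Library 4 had the lowest share. These shares, each of a single library, chose the members and depend on how deeply a cell was read, as members had a median of 1918 UMIs and Cd274-negative cells 1718.5. With every cell thinned to 1000 UMIs and the rule applied again, the shares were 41.7%, 27.9%, 25.0% and 10.1%, so the order of the libraries stayed. Of the 3356 gated Retnlg-negative cells, 184 were shallower and left out, and the thinned gate held 2737 cells. T cells thinned alike held Cd274 in 8.98%, 2.54%, 3.86% and 2.06% of cells, below the gated cells of every library. Among Retnlg-positive cells the thinned shares were 27.3%, 20.4%, 27.9% and 10.5%, lower than those of Retnlg-negative cells in libraries 1 and 2 and higher in libraries 3 and 4. The intervals overlapped in each library, but in library 2 only from 25.3 to 25.5%. Overlap does not show that shares are alike, and the difference was not tested. The plot of Cd274 shares by library sets these values side by side.

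**Figure D1:**
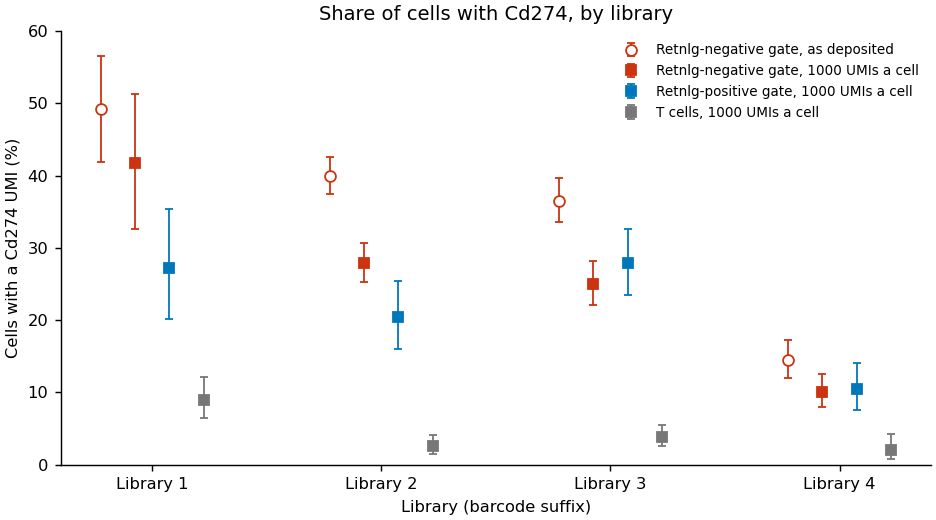
Share of cells with at least 1 Cd274 UMI (vertical axis, %) in each library, for the Retnlg-negative gate as deposited (open circles) and, at 1000 UMIs a cell (squares), for the Retnlg-negative gate, the Retnlg-positive gate and T cells. Bars are exact 95% binomial intervals. The share of the Retnlg-negative gate falls from 49.2% in library 1 to 14.5% in library 4, and T cells lie lowest in every library.

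Most members held few Cd274 molecules. A single UMI was found in 547, 2 in 252 and 3 or more in 341, with 16 as the highest. Members with 3 or more made up 29.8%, 35.6%, 26.8% and 9.43% of those of libraries 1 to 4. Summed over members, Cd274 stood at 959.7, 965, 783 and 715 CPM.

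Against the Cd274-negative cells, 8 of 2390 genes met the rule as higher (0.335%) and 1 as lower (0.0418%), with Cd274 itself left out. The interferon-gamma list, with 19 of the tested genes, held 3 of the 8, the guanylate-binding proteins Gbp2 and Gbp5 and the immunity-related GTPase Irgm1. The type I interferon list, with 26, held Ifit2, an antiviral RNA-binding protein. Gbp2b, a further guanylate-binding protein, was in neither list. The rest were Plgrkt, a plasminogen receptor, Tmem176a, a membrane protein of myeloid cells, and Pttg1, securin, which guards chromosome separation. Igfbp6, an insulin-like growth factor binding protein, was the gene that was lower.

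Gbp2 was at 380.3, 214, 213 and 274 CPM in the members of libraries 1 to 4 and at 123, 109, 95.6 and 134 CPM in their Cd274-negative cells. Gbp2b was at 561, 285, 298 and 521 CPM against 237, 164, 144 and 195 CPM. Gbp5 was at 149, 122, 172 and 128 CPM against 76.6, 43.5, 63.7 and 39.4 CPM. For each of these genes the lowest member library lay above the highest Cd274-negative library. The same held for Irgm1, Plgrkt, Tmem176a and Pttg1. All were chosen as higher in each library, and the share of all tested genes with this trait was not counted. The folds ran from 1.88 to 2.94 for Gbp2, from 1.69 to 2.59 for Gbp2b and from 1.84 to 2.79 for Gbp5. By counting error alone the log2 ratio of Gbp2 and Gbp2b was above 0 in each library, while that of Gbp5 in library 1, with 33 and 10 UMIs, ran from -0.09 to 2.15. Gbp2 and Gbp2b are neighbours of like sequence on chromosome 3, and how reads were split between them is uncertain.

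Irgm1 stood at 158, 88.7, 132 and 159 CPM in members against 84.2, 41.2, 79.6 and 88.3 CPM, a fold of 1.59 to 1.93. Its library 1 values rest on 35 and 11 UMIs. Ifit2 was at 95.1, 88.0, 217 and 406 CPM against 22.97, 28.97, 132 and 122 CPM. It was higher in members of every library, but its level differed so much between libraries that the sides overlapped, and library 1 rests on 21 and 3 UMIs. Plgrkt was at 181, 171, 138 and 106 CPM against 68.9, 61.3, 59.9 and 66.0 CPM. In library 4 the Plgrkt interval, -0.04 to 1.36 on the log2 scale, reached 0. The plot of the called genes shows each library.

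Tmem176a was at 81.5, 101, 51.2 and 88.3 CPM in members against 38.3, 36.2, 30.3 and 32.6 CPM, and came from few cells, 4.74% of members (3.58 to 6.14%) and 3.75% of Cd274-negative cells (2.99 to 4.62%). In library 4 it was in 2 of 106 members (1.89%) and 28 of 623 Cd274-negative cells (4.49%), so the higher level there rests on 2 cells. Pttg1 was at 67.9, 66.8, 84.3 and 97.1 CPM against 38.3, 38.4, 52.3 and 52.3 CPM. The Cd274-negative cells of library 1 held 5 UMIs of Tmem176a and 5 of Pttg1. For each gene the interval there, 12.4 to 89.4 CPM, covers the level of the library 1 members. Igfbp6 was at 416, 212, 172 and 163 CPM in members against 1079.8, 370.5, 266 and 274 CPM, lower in members of each library, with the highest level in library 1 on both sides.

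**Figure D2:**
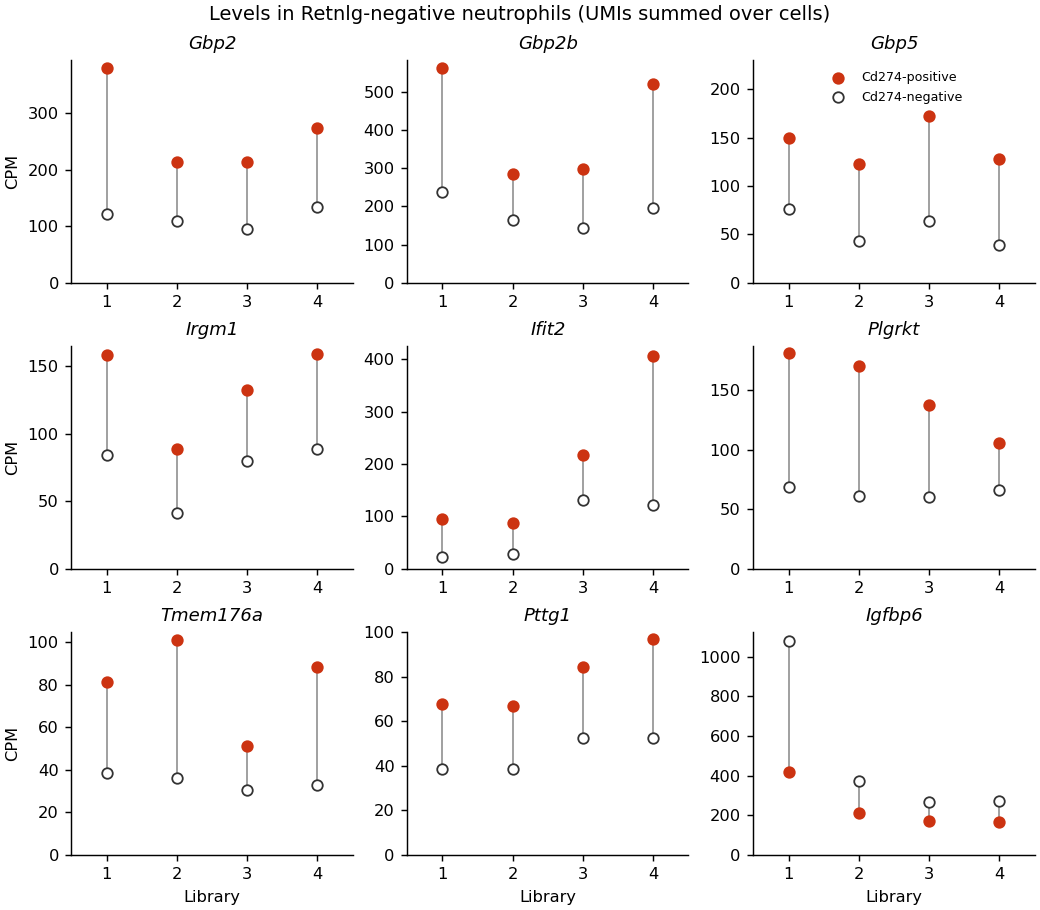
Level (CPM of UMIs summed over cells, vertical axes from 0) of the 8 genes that were higher and the 1 that was lower in members, in each of libraries 1 to 4. Filled points are Cd274-positive and open points Cd274-negative cells of the Retnlg-negative gate. Filled points lie above open points in all panels except Igfbp6, where Cd274-negative cells reach 1079.8 CPM in library 1.

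Markers of other cell types moved with the sides in some libraries. In library 1 the 12 macrophage markers summed to 8733 CPM in members and 1792 CPM in Cd274-negative cells, led by Apoe (3160 against 513 CPM), with C1qa at 1784 against 345 CPM. The 8 genes of MHC class II, which presents peptides to CD4 T cells, summed to 13753 against 3094 CPM there. The 9 macrophage markers that passed the filter had a median log2 difference of 0.65 (library medians of 2.34, 0.47, 0.54 and -0.87, lower in members in library 4), the 5 of fibroblasts 0.44 and the 3 of tumour and epithelial cells -0.23. In libraries 2, 3 and 4 the macrophage sums were 1778, 732 and 1492 CPM in members against 1302, 484 and 1382 CPM. The 6 fibroblast markers, led by Col3a1, summed to 235, 10085, 2858 and 6144 CPM in members against 398, 7232, 2155 and 1329 CPM. The tumour and epithelial markers, led by Krt18, summed to 1041, 62.9, 2.13 and 8.83 CPM against 1241, 136, 9.86 and 3.43 CPM. In the members of the 4 libraries the T cell list, led by Cd3e, summed to 17.7 to 129 CPM, the B cell list to 0 to 90.5 CPM and the NK cell list to 0 to 4.41 CPM, with Cd79a, Ncr1 and Eomes at 0 in all. The dendritic cell list, led by Fscn1, summed to 13.6 to 51.6 CPM, the endothelial list to 21.3 to 56.9 CPM, the eosinophil list to 5.33 to 17.7 CPM with Epx and Prg2 at 0, and the mast cell list to 0 to 13.9 CPM.

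Cells with over 0.5% of their UMIs in such markers were 22, 71, 17 and 4 of the members and 27, 116, 16 and 45 of the Cd274-negative cells. With these cells left out, a comparison added after the data were seen, the macrophage sums of library 1 were 1263 and 1464 CPM and the fibroblast sums of library 4 were 1348 and 1247 CPM. The removal used these markers, so smaller gaps in them are partly built in. MHC class II, which it did not use, summed to 2480, 839, 1734 and 674 CPM in members against 2689, 538, 1328 and 1478 CPM. The tumour and epithelial sums of library 1 were 1063 and 804 CPM. With these cells left out, 15 genes met the rule as higher and 1 as lower. Gbp2, Gbp2b, Gbp5, Irgm1, Ifit2 and Plgrkt were among the 15, at median log2 differences of 1.16, 1.33, 1.40, 0.89, 1.34 and 1.25. Tmem176a was not, at -0.03, nor was Pttg1, at 0.68, and Igfbp6, at -0.77, no longer met it. The further genes included Cxcl10, a chemokine that draws T cells, the transcription factor Stat2 and the antiviral genes Rsad2, Ifit3b and Ddx60.

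Depth was handled likewise. With the Cd274-negative cells weighted to the UMI counts of the members, 12 genes met the rule as higher and none as lower by the same rule of size, and 7 of the 8 were among them, without Tmem176a. The median log2 differences of Gbp2, Gbp2b, Gbp5 and Plgrkt were then 1.09, 1.08, 1.42 and 1.29, against 1.03, 1.10, 1.31 and 1.18 as summed. With every cell thinned to 1000 UMIs and the gate applied again, 7 genes met the rule, and of the 8 these held only Gbp5, Ifit2 and Plgrkt. Gbp2, Gbp2b, Irgm1 and Pttg1 missed it, at medians of 0.70, 0.97, 0.69 and 0.71, and Tmem176a turned to -0.64.

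Smaller differences in one direction were common, as 8.66% of the 2390 genes were higher by any amount in members of all 4 libraries and 16.8% were lower. The list of the interferon-gamma pathway and its targets had 11 of 19 tested genes higher in all libraries and 1 lower, at a median log2 difference of 0.47, where the median of all tested genes was -0.04. A list's value here is the median over its genes of each gene's median over libraries. Gbp7, Ifngr1, Rsad2, Usp18, Tap1, Selplg and the other list genes named beyond the few most abundant were picked after their values were seen. The 11 included the kinase Jak2, the signal transducer Stat2, and Gbp3, Gbp7, Igtp and Cxcl10. Socs3, the most abundant gene of the list, and Irf1 were not among them. Socs3 was at 611, 345, 348 and 402 CPM in members against 567, 315, 395 and 388 CPM. In the Cd274-negative cells of library 1, Irf1 was at 758 CPM. Its members with 1, 2 and 3 or more Cd274 UMIs had 867, 451 and 488 CPM. In libraries 2, 3 and 4 Cd274-negative cells had 157, 351 and 197 CPM of Irf1. Members with 1 Cd274 UMI had 232, 452 and 258 CPM there. Gbp7 was at 326, 163, 205 and 203 CPM in members against 130.2, 90.2, 113 and 136 CPM. Cxcl10 was at 557, 303, 668 and 631 CPM against 459.5, 158, 328 and 236 CPM. Ifngr1, the receptor chain that binds interferon-gamma, went the other way at 99.6, 79.4, 91.8 and 83.9 CPM in members against 115, 109.7, 91.8 and 101 CPM, a gap of under 0.1 CPM in library 3.

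The list of type I interferon-stimulated genes had 13 of 26 tested genes higher in all libraries and 1 lower, at a median of 0.48. The library medians were 0.02, 0.35, 0.36 and 0.78, lowest in library 1 and highest in library 4. Rsad2, which makes an antiviral nucleotide, was at 851 CPM in the members of library 1 against 1065 CPM, and at 2268, 3263 and 3337 CPM in libraries 2, 3 and 4 against 1207, 1954 and 1594 CPM. Isg15, a ubiquitin-like modifier, behaved alike, at 2997 against 3844 CPM in library 1 and 5018 against 2892 CPM in library 4. Usp18, which trims Isg15 from proteins, was higher in each library, at 76.96, 109, 202 and 327 CPM against 45.9, 67.4, 155 and 153 CPM. Ifitm1, a membrane protein that blocks viral entry, was lower in each, at 3821, 1934, 1046 and 2074 CPM against 7406, 2796, 1444 and 2956 CPM.

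MHC class I and its peptide supply had 7 of 10 tested genes higher in all libraries and none lower, at a median of 0.27. B2m, the shared light chain, was at 1947, 1226, 1555 and 1946 CPM against 1585, 1053, 1266 and 1588 CPM, and Tap1, a peptide transporter, was at 208, 77.4, 101 and 154 CPM against 153, 61.3, 62.2 and 99.5 CPM. None of the 10 met the rule of size. MHC class II took opposite signs, with list medians of 2.02 in library 1 and -0.99 in library 4.

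Neutrophil markers leaned the other way, with 7 of 15 tested genes lower in members of all libraries and 1 higher, at a median of -0.18. The 7 included S100a8, S100a9 and Csf3r, whose UMIs chose the cells of both sides. Without these 3 genes, 4 of 12 were lower in all libraries, Cxcr2, Il1r2, Clec4d and Lrg1, and Fpr2 was higher, at a median of -0.13. S100a8 was at 14668, 22593, 20946 and 27258 CPM in members against 21742, 27232, 26473 and 33091 CPM. Lrg1, a secreted glycoprotein, was at 394, 738, 777 and 1814 CPM against 988, 1380, 962 and 2226 CPM, and Cxcr2 was at 204, 406, 388 and 1015 CPM against 368, 619, 509 and 1065 CPM. Adhesion genes had 4 of 14 lower in all, among them Selplg, Itgb2 and Itgal, at a median of -0.15. Selplg, a ligand that lets leucocytes roll on vessel walls, was at 127, 197, 216 and 274 CPM in members against 291, 292, 315 and 494 CPM.

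**Figure D3:**
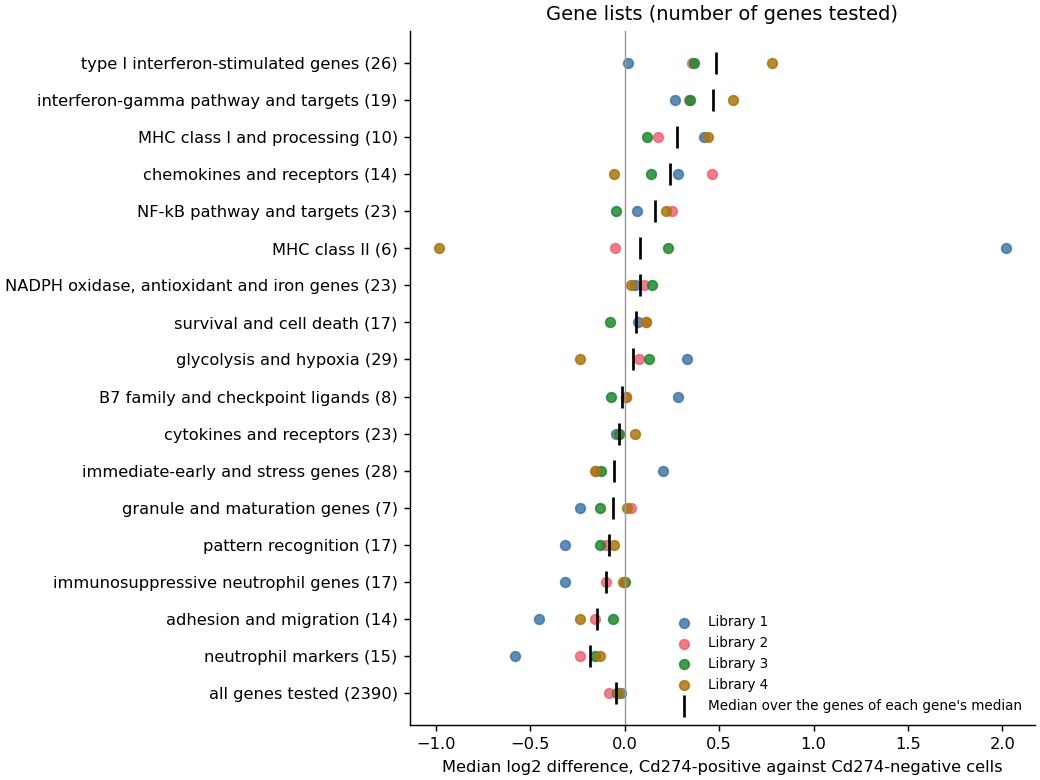
Median log2 difference between Cd274-positive and Cd274-negative cells (horizontal axis) of each gene list drawn and of all genes tested, with its number of tested genes in brackets. Coloured points are libraries 1 to 4, and black ticks are the median over genes of each gene's median over libraries. Of these lists, which leave out the markers of other cell types, the 2 of interferon have the highest ticks, at 0.48 and 0.47, the neutrophil markers the lowest at -0.18 (-0.13 without the 3 gate genes, above the adhesion list at -0.15), and MHC class II spreads from -0.99 to 2.02.

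Chemokines and their receptors had 5 of 14 genes higher in all libraries and 3 lower, at a median of 0.24. Ccl3 and Ccl4, which attract leucocytes, were among the 5. Ccl3 was at 2924.5, 11176, 11693 and 5089 CPM in members against 1332.5, 6075, 10387 and 4791 CPM, a wide gap in libraries 1 and 2 and a narrow one in libraries 3 and 4. Cxcl2, which attracts neutrophils, was higher in 3 libraries and lower in library 4, at 43416 against 44660 CPM. Of cytokines and their receptors 2 of 23 were higher in all, Tnf and Il1a, and 3 lower, at a median of -0.03. Tnf was at 602, 1016.5, 2392 and 693 CPM against 322, 797, 2097 and 595 CPM. Among the B7 family and checkpoint ligands, where the filter kept 8 genes, Lgals9 and Cd47 were higher and Vsir lower in all libraries. Cd47, the signal against engulfment, was at 312, 405, 331 and 318 CPM against 199, 389, 316 and 298 CPM.

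The remaining lists had medians between -0.10 and 0.16. NF-kB and its targets had 4 of 23 higher in all and none lower, at 0.16, with library medians of 0.06, 0.25, -0.05 and 0.22. Glycolysis and hypoxia had 1 of 29 and none, at 0.04, and survival and cell death 1 of 17 and 1, at 0.06. Genes listed for suppressive tumour neutrophils had 0 of 17 higher and 3 lower, at -0.10. Granule genes of young neutrophils, with 7 tested, had 0 higher and 1 lower, at -0.06. Their list summed to 2716, 7843, 5207 and 5927 CPM in members against 2244, 4558, 5430 and 5853 CPM, with a wide gap in library 2. Lcn2, its most abundant gene, was at 389, 5169, 2123 and 1562 CPM against 559, 1837, 1841 and 1127 CPM. Immediate-early and stress genes had 0 of 28 higher and 7 lower, at -0.06, and pattern recognition 1 of 17 higher and 5 lower, at -0.08. In the oxidase, antioxidant and iron list 5 of 23 were higher and 2 lower, at 0.08. Fth1, ferritin heavy chain, was at 48345, 57142, 47461 and 27651 CPM against 37326, 37927, 38961 and 24839 CPM.

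Members differed widely among themselves. At 1000 UMIs a cell, the genes of both interferon lists together gave a median of 18 UMIs, and reached 148 in the highest cell, against 16.5 and 175 in Cd274-negative cells. The medians by library were 17, 17, 17 and 30 in members and 22, 16, 14 and 20 in Cd274-negative cells, so library 1 went the other way. For Gbp2, Gbp2b and Gbp5 alone, a trio picked after its values were seen, 53.4%, 38.0%, 35.5% and 41.5% of members held a UMI at this depth, against 22.7%, 20.8%, 19.9% and 22.9% of Cd274-negative cells. These genes were chosen as higher in the same cells, so the gap is a description.

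The level of these genes was also read by the number of Cd274 UMIs in a cell, in libraries 2 and 3, which held the most members. The class with 0 is the Cd274-negative side against which these genes were chosen as higher. Its low level largely follows from that choice and is a description. In library 2, Gbp5 was at 43.5, 55.1, 129.8 and 185 CPM in cells with 0, 1, 2 and 3 or more Cd274 UMIs, and Plgrkt at 61.3, 91.8, 156 and 255 CPM. In library 3, Gbp5 was at 63.7, 155, 150.2 and 212 CPM and Plgrkt at 59.9, 117, 171 and 138 CPM. Ifit2 rose with Cd274 UMIs in library 2, at 28.97, 40.1, 99.8 and 129 CPM, but was highest in cells with 1 UMI in library 3, at 132, 285, 146 and 185 CPM. In library 1, Plgrkt was at 68.9, 104, 121 and 291 CPM. Gbp2 was at 123, 492, 69.4 and 488 CPM there and Gbp5 at 76.6, 220.0, 69.4 and 139.5 CPM, where the third class, of 20 cells, rests on 4 UMIs of each gene (18.9 to 178 CPM). In library 4, Gbp5 was at 39.4, 88.4, 217 and 153 CPM, with 10 cells in the last class. Depth moved with these classes, as the median cell had 1705.5 UMIs at 0 and 2121 at 3 or more in library 2, and its part was not tested.

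**Figure D4:**
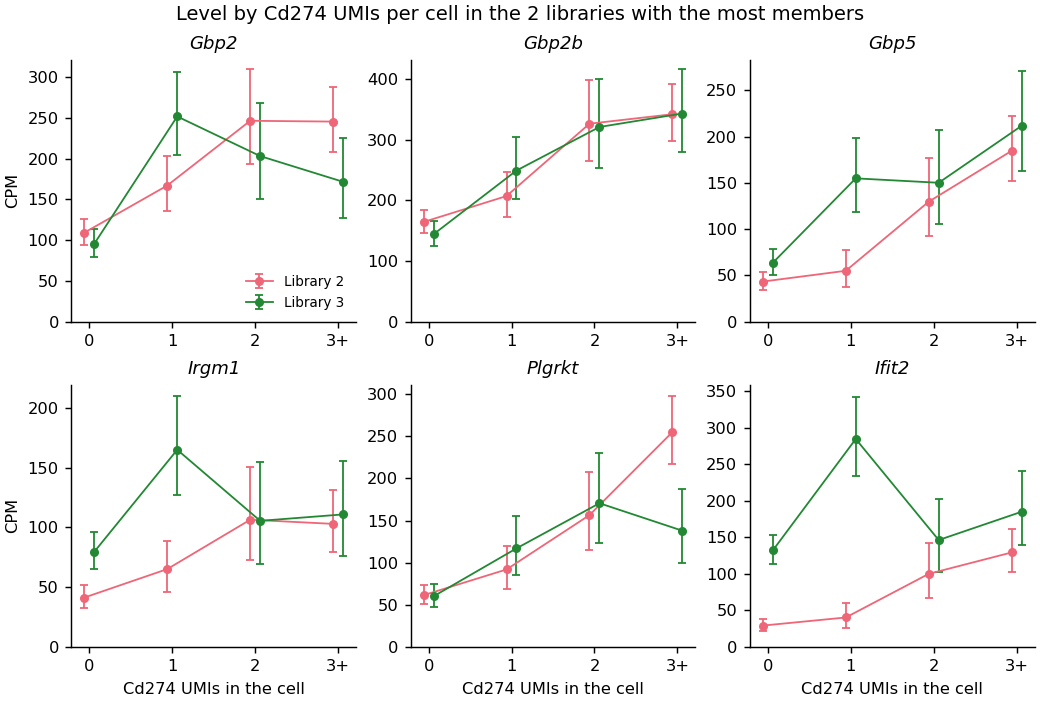
Level (CPM of summed UMIs, vertical axes from 0) of Gbp2, Gbp2b, Gbp5, Irgm1, Plgrkt and Ifit2 in gated Retnlg-negative cells with 0, 1, 2 or at least 3 Cd274 UMIs (horizontal axis), in libraries 2 and 3. Bars are exact 95% Poisson intervals. Cells with 0 UMIs have the lowest level of each gene in these libraries, which was not so for Gbp2 and Gbp5 in library 1, where the class with 2 rests on 4 UMIs of each, and Gbp5 in library 2 reaches 185 CPM at 3 or more. The genes were chosen as higher than in these same cells with 0 UMIs, so the low level at 0 largely follows from the choice.

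Cd274 lies at chromosome 19, 29367455 to 29388095 (GRCm38, GENCODE, plus strand). Plgrkt lies at 29348599 to 29367390 on the minus strand, so the annotated genes point away from each other with 64 bases between. The Cd274 stretch printed above lies inside this outermost annotation of Plgrkt, near its start, whereas the RefSeq window searched for Plgrkt is at another start, and its lack of the core does not bear on the shared stretch. The genes within 250000 bases of Cd274 were listed after these calls were seen. With 20 or more UMIs over both sides, 8 could be compared, and 4 of them were higher in members of all libraries, Plgrkt, Jak2, Pdcd1lg2 and Ric1. Of all 10257 genes with that many UMIs 6.38% were. Pdcd1lg2, the gene of the other PD-1 ligand PD-L2, was scarce, with 74 UMIs in members and 33 in Cd274-negative cells, and in library 4 with 1 and 5 UMIs (4.41 and 4.29 CPM), so that its being higher there rests on 1 UMI. AC119228.1, which is annotated antisense inside Cd274, had 18 and 11 UMIs, and no source used here states whether counting used strand. Of the guanylate-binding proteins on chromosomes 3 and 5, also listed afterwards, 7 had that many UMIs and all 7 were higher in members of every library, among them Gbp4 with 35 and 24 UMIs. Gbp2, Gbp2b and Gbp5, called above, were 3 of these 7.

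Cells that the choice of members had not used gave a second reading of the same contrast. Of the Retnlg-positive neutrophils, 115, 219, 289 and 90 had Cd274 and 151, 330, 392 and 448 had none. This comparison was added after the data were seen. Among 2305 tested genes, 2 met the rule as higher in the cells with Cd274 (0.0868%), Gbp5 and Plgrkt, both among the 8 above. Gbp5 was at 66.4, 124, 97.7 and 46.1 CPM with Cd274 and at 35.1, 34.9, 58.8 and 21.4 CPM without. Plgrkt was at 109, 124, 108 and 102 CPM with and 57.7, 52.9, 57.7 and 55.2 CPM without. Gbp2, Gbp2b and Irgm1 were higher in each library by less than the rule asks in at least 1, with median log2 differences of 0.64, 0.61 and 0.70. Ifit2 was lower in library 2, at -0.19, and Tmem176a, Pttg1 and Igfbp6 changed sign between libraries. Whether these differences are smaller than those of the Retnlg-negative cells was not tested.

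**Figure D5:**
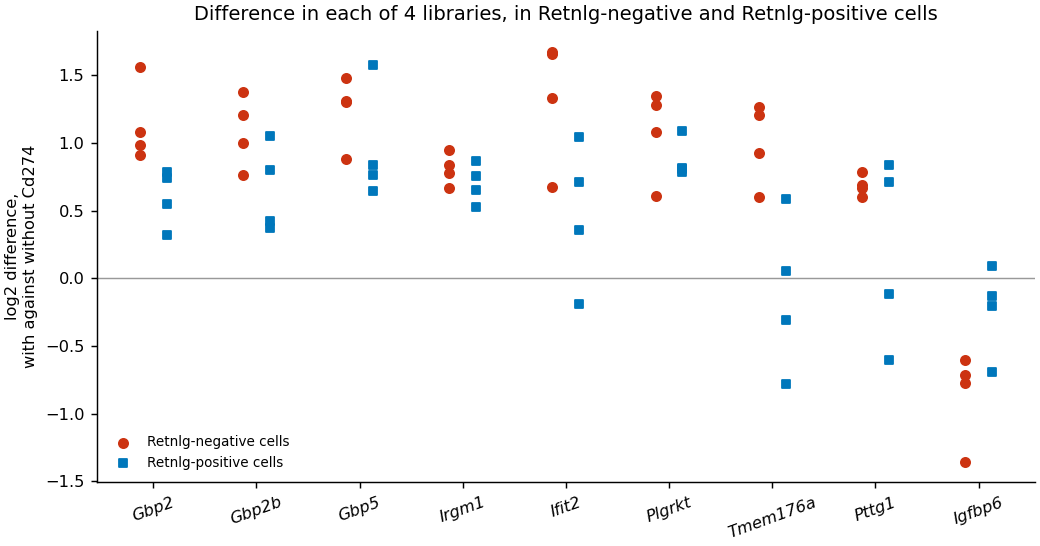
Log2 difference between cells with and without Cd274 (vertical axis) for the 9 genes that met the rule, with 1 point for each of the 4 libraries. Circles are Retnlg-negative and squares Retnlg-positive cells. Squares of Gbp2, Gbp2b, Gbp5, Irgm1 and Plgrkt all lie above 0, while those of Ifit2, Tmem176a, Pttg1 and Igfbp6 lie on both sides of it.

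The members were last set against all 2034 Retnlg-positive neutrophils, with and without Cd274, of the same libraries. The sides differ in Retnlg and Cd274 by the rule. Of 2356 genes, 6 met the rule as higher in members (0.255%), namely Ifit3b, Gbp5, Plgrkt, Irgm1, Cxcl10 and Ccl7, and none as lower (0%), although 355 were higher by any amount in all libraries (15.1%) and 210 lower (8.91%). Cxcl10 was at 557, 303, 668 and 631 CPM in members against 234, 132, 425 and 159 CPM. Ifit3b, an antiviral gene, was at 27.2, 95.3, 305 and 503 CPM against 3.48, 48.1, 184 and 217 CPM, with a low level in library 1. Ccl7, a chemokine that draws monocytes, was at 403, 582, 481 and 393 CPM against 81.3, 303, 304 and 253 CPM. Markers of other cell types moved with this contrast too, as the macrophage markers of library 1 summed to 8733 CPM in members and 2395 CPM in Retnlg-positive cells, and MHC class II to 13753 against 5407 CPM. The fibroblast markers of library 4 summed to 6144 against 1339 CPM. Some lists were lower in members. The tumour and epithelial markers summed to 1041 against 2588 CPM in library 1 and 62.9 against 288 CPM in library 2. The NK cell list summed to 3.20 against 113 CPM in library 3, and the mast cell list to 0 against 250 CPM in library 4. With cells over 0.5% in such markers left out, 8 genes met the rule, and of the 6 above these held Ifit3b, Irgm1 and Plgrkt. Cxcl10 and Gbp5 then missed it, at medians of 0.97 and 1.61, and Ccl7 turned to -0.27. The interferon-gamma list had 10 of 19 genes higher in all libraries and none lower, at a median of 0.59, and the type I list 18 of 26 and 1, also at 0.59, where the median of all tested genes was 0.04. S100a8, used in the gate, was at 45879, 32710, 33700 and 46200 CPM in Retnlg-positive cells, above the members of every library, and Wfdc17, a secreted protease inhibitor-like gene, was at 10592, 3276, 1016 and 2366 CPM against 2327, 2753, 1004 and 1743 CPM in members.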

How the data were processed

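Single-cell suspensions of CD45+ cells from 4T1 tumours were profiled by 10x Genomics. The deposited values are raw UMI counts per gene and cell in 1 pooled matrix, made by the authors with Cell Ranger against mm10. Version 3.0.2 is named in the extract protocol, 2.1.1 in the submitters' processing notes and 6.1.2 in the matrix header. The labels give 15603 cells after filtering, whereas the matrix held 33064 barcodes, of which the filter used here (300 genes, 15% mitochondrial UMIs) left 32133. Libraries 1 to 4 held 108646352, 81369540, 69255999 and 96493208 UMIs. The members of each summed to 220892, 1511016, 937251 and 226575 UMIs, so values of libraries 1 and 4 carry the widest counting error. No source links suffixes to samples, and no test between treatments was made.

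Counts were summed per side and library, scaled to CPM and compared with a pseudocount of 10 CPM. Cd274, Retnlg and Ly6c2 were left out of the tested genes. The text names up to 15 genes higher and 10 lower by the rule of size, and, for each list, the called genes and up to 4 of the most abundant, with the gate genes and markers of other cell types. Members, lists and rules were chosen with earlier results of these data known. Scrublet (scanpy 1.11.5) called 2.75%, 0.0116%, 0% and 1.73% of cells doublets in the 4 libraries, in order, too few to use in libraries 2 and 3. Doublets were therefore kept, and the 5% of cells with the highest scores in each library were removed as an alternative. Of those, 73 were among the 1140 members and 67 among the 2216 Cd274-negative cells, so high scores were more common among members. In library 2 they were 48 of 578 members and 30 of 868 Cd274-negative cells. The scripts (Python 3.11.15, scipy 1.17.1) were tested on simulated data. Positions are from GENCODE release 21 of the mouse and promoter windows from RefSeq. Some items are not reported here.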

Additional observations from a re-analysis of the deposited data

Results flagged for a closer look

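In 54 sets of 4 library values, the highest or lowest was checked for its distance from the rest, and 7 stood apart. By chance the limit sets apart about 1 in 20 sets of independent, normally distributed values. The rate for sums of sparse lists was not measured. In library 1 the members' summed level of MHC class II was 13750 CPM to 4 digits, against 693 to 1518 CPM in the other libraries. Its macrophage markers summed to 8733 CPM (732 to 1778 CPM elsewhere), its B cell markers to 90.5 CPM, all from Ighm (0 to 6.62 CPM), and its tumour and epithelial markers to 1041 CPM (2.13 to 62.9 CPM). The median log2 difference of the immediate-early and stress genes was 0.20 in library 1 and -0.16 to -0.13 in the others. In library 4 the median of the cytokines and receptors was 0.053, against -0.05 to -0.03. Mast cell and basophil markers summed to 13.9 CPM in the members of library 3 and to 0 to 0.66 CPM in the others.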

How the results depend on the processing

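Every difference was taken between the sides of the same library, and no test was fitted over the 4 differences. The share of the Retnlg-negative gate with Cd274, 33.97%, was 36.01% with no Csf3r UMI required and 23.13% at 1000 UMIs a cell, and ran from 29.42% without library 2 to 39.36% without library 4. The 8 genes higher than in Cd274-negative cells became 14 with the highest doublet scores removed, 3 with a pseudocount of 50 CPM, 13 with a mean of 20 CPM, 13 with no filter on low values and 15 with cells holding markers of other types left out. They were 16 to 19 when a library was left out, where the rule asks for 3 libraries only (16 without library 1 or 4, 19 without library 2 or 3), with all 8 among them each time. The 1 gene lower, Igfbp6, became 0 with S100a8 and S100a9 at 2%, with no Csf3r UMI required, at equal depth, without the highest doublet scores, with 50 CPM and with median-of-ratios scaling. There were 5 with 2 or more Cd274 UMIs, 2 at 1000 UMIs, 3 with no filter and 1 to 5 without a library. The 6 genes higher than in Retnlg-positive cells became 22 at 1000 UMIs, 15 without the highest doublet scores, 10 with a pseudocount of 1 CPM, 1 with 50 CPM, 3 with median-of-ratios scaling and 6 to 23 without a library (15 without library 2, 23 without library 3). The 0 genes lower became 1 with S100a8 and S100a9 at 2%, with 1 CPM, with a mean of 20 CPM, with S100a8 and S100a9 left out of totals and with median-of-ratios scaling. They became 2 with no Csf3r UMI required, with no filter and without cells of other markers, 5 with 2 or more Cd274 UMIs and without the highest doublet scores, 6 at 1000 UMIs, and 0 to 4 without a library. The cause of these shifts was not tested.

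Under the 19 alternatives Gbp2, Gbp2b and Gbp5 met the rule in 18 each, Ifit2 and Plgrkt in 17, Irgm1 in 16, Pttg1 in 12, and Tmem176a and Igfbp6 in 11. Gbp2 and Gbp2b missed it at 1000 UMIs and Gbp5 with 2 or more Cd274 UMIs. The median log2 difference of Tmem176a turned to -0.64 at 1000 UMIs and to -0.032 without cells of other markers. Of the values of the 9 genes called against Cd274-negative cells those 2 reversed, 15 moved by more than the spread of the libraries and 154 did not. Of those of the 6 genes called against Retnlg-positive cells, Ccl7 turned to -0.265 without cells of other markers, 4 moved and 109 did not. Of the list medians 20 moved and 303 did not. Depth limits libraries 1 and 4 most, where a called gene rested on as few as 3 UMIs (Ifit2 in the Cd274-negative cells of library 1).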
